A study of Mus musculus with 7 samples.

Results

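The genes described here are the 1126 olfactory receptor genes among the 27179 genes of a count table, taken as every gene whose mouse symbol starts with Olfr and a digit, or with the newer Or symbols. They make up 4.14% of the genes. The table comes from chromatin immunoprecipitation and sequencing (ChIP-seq), in which an antibody pulls down a protein with the DNA it sits on, and the DNA is sequenced. Tissue was the first and the second pharyngeal arch, the tissue that forms the jaw and middle ear, of C57BL/6 mouse embryos at stage E10.5. The antibody was directed against the V5 peptide. In the 3 V5 libraries the embryos were homozygous for an allele in which a Flag-V5-BIO tag is fused to the carboxy-terminus of MOZ (KAT6A), a histone acetyltransferase, at its own locus; mice of this genotype are described as viable, healthy and fertile. In the 3 wild-type libraries there is no tag to bind, so they are the negative control of the same antibody, and 1 input library holds DNA of tagged arches that was not precipitated. No label states that the replicates are separate embryos or pools; p-values then cover only how these libraries vary, and that variation may be technical. Reads are from bulk tissue, so more cells with a signal and more signal per cell cannot be told apart.

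Olfactory receptors are G protein-coupled receptors that detect odorants on sensory neurons of the nose, and they form the largest gene family of the mouse. Most receptor genes carry the whole coding sequence in 1 exon and stand in tandem clusters on many chromosomes. In each olfactory neuron 1 allele of 1 receptor gene is expressed, with the transcription factors LHX2, LDB1 and EBF1 binding its promoter and enhancers. Olfactory neurons are not part of the pharyngeal arches, and the reads here are DNA recovered with the antibody or in the input, which does not measure receptor expression.

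The counted unit was the gene model. Of the members, 1104 were annotated as protein coding, 21 as pseudogenes and 1 as another RNA, on 17 chromosomes. For 1004 of them (89.2%) the deposited length was 800 to 1200 bp, and 88.9% of these lengths were multiples of 3, so that what was counted is close to the coding length, without UTRs. Another 74 members were over 1200 and up to 5000 bp long and 48 were over 5000 bp. For 90.2% of members the deposited length lay within 1% of the gene's span in RefSeq GRCm38.p6 (mm10). An exception is Olfr56, with 84655 bp in a span of 1215 bp, and what was counted there is uncertain. The sequences of 6 short receptors below, from RefSeq GRCm38.p6, show this layout. Each has 100 bases upstream of the gene model in lower case, which were not counted, and the first 50 counted bases in capitals, 5′ to 3′ on the gene's strand. They were chosen because 4 are well-studied receptors that differ in base composition, with Olfr17 near the middle of the family. Olfr596 shares its whole window with another gene, and Olfr1181 had the highest ratio of ChIP to input among members with at least 70 counts.
Olfr15: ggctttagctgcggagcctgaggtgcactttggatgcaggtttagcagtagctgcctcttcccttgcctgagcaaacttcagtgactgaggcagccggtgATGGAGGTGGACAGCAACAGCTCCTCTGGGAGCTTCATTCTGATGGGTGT
Olfr545: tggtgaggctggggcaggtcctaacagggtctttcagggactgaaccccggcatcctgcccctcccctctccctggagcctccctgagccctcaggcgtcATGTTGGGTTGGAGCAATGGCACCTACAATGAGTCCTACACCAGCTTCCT
Olfr17: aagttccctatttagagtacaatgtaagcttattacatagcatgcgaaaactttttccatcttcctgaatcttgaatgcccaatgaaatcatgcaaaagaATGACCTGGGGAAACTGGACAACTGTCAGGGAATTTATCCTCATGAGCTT
Olfr73: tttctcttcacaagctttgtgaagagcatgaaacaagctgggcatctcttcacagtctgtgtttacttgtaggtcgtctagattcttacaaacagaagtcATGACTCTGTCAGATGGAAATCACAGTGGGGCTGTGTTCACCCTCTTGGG
Olfr596: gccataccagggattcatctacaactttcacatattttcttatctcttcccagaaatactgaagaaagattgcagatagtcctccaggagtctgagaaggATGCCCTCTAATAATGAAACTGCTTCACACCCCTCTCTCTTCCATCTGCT
Olfr1181: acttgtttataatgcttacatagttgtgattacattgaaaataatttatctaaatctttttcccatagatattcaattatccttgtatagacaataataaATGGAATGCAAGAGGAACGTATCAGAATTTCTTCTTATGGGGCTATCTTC

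Each of these models starts at the ATG of the coding sequence, as did 72.7% of the 940 members with a window in the RefSeq promoter table, against 4.42% of other genes. The 250 bases upstream of Olfr1181 (chr2, 88423088 to 88424023 for the gene) had 20.4% G and C, those of Olfr73 (chr2, 88034196 to 88035137) 28.4%, those of Olfr545 (chr7, 102493823 to 102494773) 49.2% and those of Olfr15 (chr16, 3838975 to 3839913) 56%. The low end was the usual one: the median over members was 34%, against 56% over other genes, and 44.4% of the members' windows held no CpG at all, against 5.16% of other windows. For models that start at the ATG the window lies before the coding start and not necessarily before the start of transcription, because noncoding first exons are not in these models.

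Motifs were searched on both strands in the 250 upstream bases as a description of the windows. TAATTA, a homeodomain core of the kind LHX2 binds, was in 18.2% of the members' windows and in 4.41% of all windows. Among windows with up to 38% G and C it was in 21.2% of the members and in 15.8% of other genes. Inside that class the median was 32% G and C for members and 35.2% for other genes, so composition was not fully matched. TATAAA was in 39.1% of the members and 12.1% of all windows, and in 46.9% and 37.7% among the windows with up to 38% G and C. CCCNNGGG, the EBF palindrome, was in 2.77% of the members' windows and in 13.3% of all windows, and in 1.31% of the members and 1.67% of other genes among windows with up to 38% G and C. It was in 7.39% of the members whose model does not start at the ATG and in 1.02% of those whose model does. TAATTA and CCCNNGGG read the same on both strands, a base can belong to a TAATTA and a TATAAA match at once, and a match is not a bound site.

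Library totals ran from 806648 counts (V5 replicate 1) to 3488745 (input). V5 replicate 3, wild-type replicate 3 and the input were the deep libraries, with 3286602, 2504595 and 3488745 counts, while the other 4 held 806648 to 1327452. A single receptor gene had few reads at these depths. The median member had 10 counts over all 7 libraries together, 46 members had at least 70 and 123 had at least 30. Only 14 members (1.24%) had 0 counts in every library, against 9.68% of all genes, and 3 of the 14 were among the 36 members that overlap another gene. For a gene at 0, the 95% upper bound on the expected count is about 3 if reads fall independently. That is 0.860 CPM (counts per 1e+06 counted reads) in the input and 3.72 CPM in V5 replicate 1. Reads came in clumps, as given below, so the bound is too tight.

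Summed over genes, short receptors took a larger share of the reads in all 6 ChIP libraries than in the input, in both genotypes. The 1004 members of 800 to 1200 bp together took 828, 785 and 1006 CPM in V5 and 804, 820 and 1085 CPM in wild type. In the input they took 241 CPM (95% exact binomial interval 225 to 258, counting error only). No ChIP library came near the input value, and the V5 and wild-type libraries overlapped. The mean was 873 ± 117 CPM in V5 and 903 ± 158 CPM in wild type (SD, n = 3 each), 3.63 and 3.75 times the input. There is 1 input library and no replicate of it, so this difference has no test. The input is also recorded as another library type, and whether it was processed like the ChIP libraries is not known. Precipitation and library type therefore cannot be told apart in this difference or in any other ratio to the input.

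In summed density, the gap to the input was seen in the shorter length classes. Per kilobase of deposited length, short receptors had 0.814 to 1.12 CPM per kb over the 6 ChIP libraries and 0.250 in the input. Members over 1200 and up to 5000 bp had 0.792 to 1.14 CPM per kb in the ChIP libraries and 0.556 in the input. The 48 members over 5000 bp had 0.907 to 1.11 CPM per kb in the ChIP libraries and 1.19 in the input, which was above all 6. Single long genes did not follow that sum: Olfr687 alone held 504 of its 2473 input counts, and gene by gene 32 of the 48 had a mean ChIP level above the input, with a median log2 ratio of 0.66. Across these 3 length classes the ChIP density stayed near that of all genes, 0.977 CPM per kb, while the summed input density ran from 0.250 to 1.19. Over all 1126 members the sum was 1722 ± 175 CPM in V5, 1792 ± 168 CPM in wild type and 1087 CPM in the input.

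**Figure D1:**
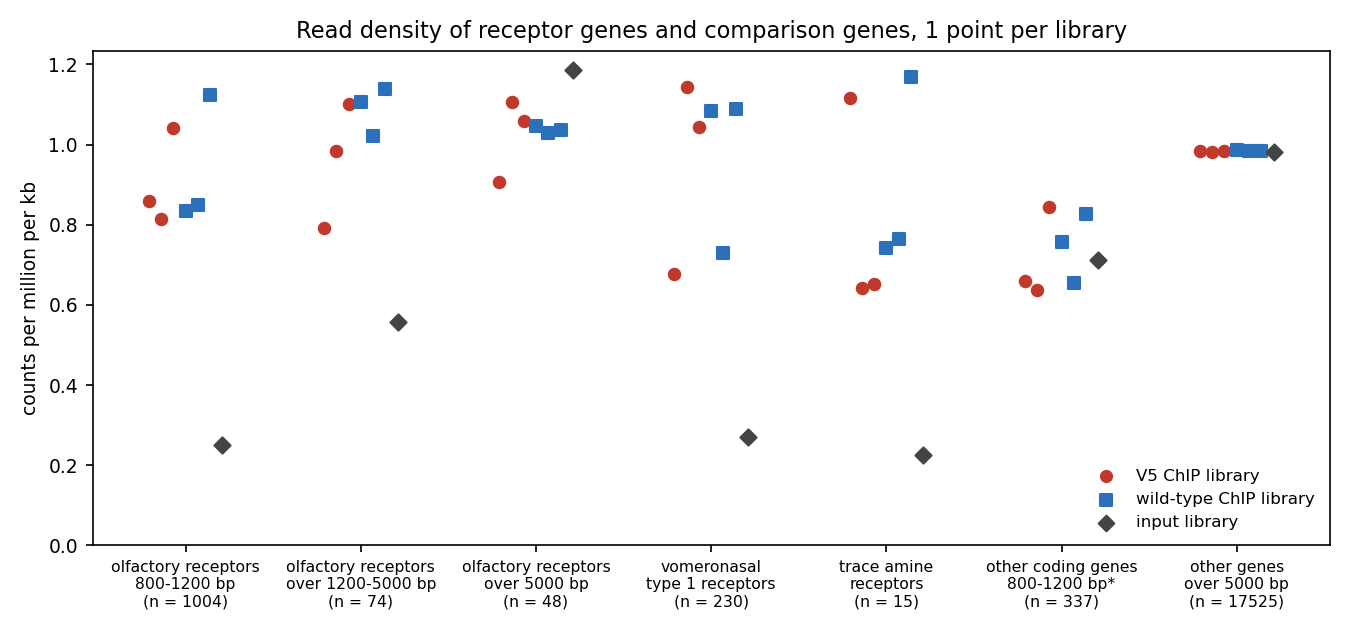
Read density in CPM per kb of deposited length (vertical axis) for olfactory receptor genes of 3 length classes and for 4 comparison groups, with 1 point per library. The input lies at 0.250 for short olfactory receptors, far below the ChIP libraries at 0.814 to 1.12, and within their range for other coding genes of that length; the asterisk marks a group without the 5% of its genes with the most counts.

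Other chemoreceptor genes of the same build showed the same gap. Vomeronasal type 1 receptors, pheromone receptors whose coding sequence also lies in 1 exon (230 genes), had 0.677 to 1.14 CPM per kb in the ChIP libraries and 0.270 in the input. Trace amine-associated receptors, a small family of the nose (15 genes), had 0.643 to 1.17 CPM per kb in the ChIP libraries and 0.226 in the input. Vomeronasal type 2 receptors, whose genes have several exons and long introns (123 genes), had 0.878 to 1.08 CPM per kb in the ChIP libraries and 1.63 in the input, above all 6. Other genes of that length had smaller gaps or none, depending on which were taken. Without the 5% with the most counts, other protein-coding genes of 800 to 1200 bp had 0.636 to 0.844 CPM per kb in the ChIP libraries and 0.713 in the input. With all 354 of them the values were 1.35 to 2.15 and 1.52. All 496 other genes of that length, coding or not, had 1.43 to 2.10 and an input of 1.38, below all 6. Without the 5% with the most counts, other short genes with 38 to 46% G and C upstream (75 genes) had 0.629 to 0.928 and an input of 0.554, also below all 6. Without the 5% of short olfactory receptors with the most counts, the input stood at 0.241 CPM per kb, and V5 and wild type at 2.76 and 3.63 times that value.

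The number of genes at 0 and the base composition were read beside this result. Among short genes with at least 1 read, 49.4% of olfactory receptors had 0 counts in the input, against 21.2% in V5 replicate 3 and 26.8% in wild-type replicate 3, libraries of less depth. For vomeronasal type 1 receptors these shares were 56.8%, 23.7% and 25.8%. For other protein-coding genes they were 32.3%, 24.1% and 26.7%. Other short genes whose upstream window had up to 38% G and C (49 genes) were at 0 in 44.9% in the input, 28.6% in V5 replicate 3 and 22.4% in wild-type replicate 3. Short receptors with over 46% G and C (44 genes) were at 0 in 47.7% in the input, 27.3% in V5 replicate 3 and 36.4% in wild-type replicate 3. Other short genes in that class (167 genes) were at 0 in 26.3%, 22.2% and 28.7%. In density, the receptors over 46% had 0.304 CPM per kb in the input and the receptors up to 38% had 0.238, whereas other short genes up to 38% had 0.799, inside the ChIP range of 0.390 to 1.33. Without the 10% of genes with the most counts these inputs were 0.320, 0.227 and 0.545 CPM per kb. The part of base composition in the result was not tested further; the window stands beside the counted bases and no genome was used here.

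Receptors also differ in how close their nearest copy is. Over the start windows, 22 members had a partner with at least 95% identity. Short receptors of that class (20 genes) had 0.179 CPM per kb in the input, those with 80 to under 95% identity (121 genes) had 0.203, and those under 80% (705 genes) had 0.248. The ChIP libraries ran from 0.194 to 1.19, from 0.434 to 1.33 and from 0.779 to 1.12 in these classes, so that the lowest ChIP library came close to the input among the few near-identical copies. Counting settings are not known, and the part of reads with several matches was not tested. The closest pairs were Olfr596 with Olfr603, and Olfr1506 with Olfr1565, each with 300 identical bases in the window. Olfr596 had 0 counts in all libraries and Olfr603 (chr7, 103383062 to 103384000) had 1 count in each of wild-type replicates 1 and 3. Olfr1506 had 21 counts in all and Olfr1565 had 9. Counts of such pairs are uncertain.

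Reads of short receptors came in clumps, most of all in V5 replicates 1 and 2. In V5 replicates 1, 2 and 3, 84.0%, 83.3% and 22.3% of the 1004 short receptors had 0 counts. Wild-type replicates 1, 2 and 3 had 69.5%, 62.9% and 27.8% at 0, and the input had 50.1%. V5 replicate 2 had genes at 0 more often than wild-type replicates 1 and 2, whose totals were slightly higher. The variance of the counts over their mean, which is 1 for reads that fall independently on equal genes, was 11.7, 13.6 and 3.55 for V5, 5.62, 3.94 and 3.65 for wild type and 1.76 for the input. Members with 10 or more counts in a library held 55.7%, 54.3% and 24.6% of the short receptors' reads for V5, 29.7%, 11.4% and 19.7% for wild type and 2.98% for the input. The handling of duplicate reads is not given in the sources used here, and its part in these clumps was not tested.

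**Figure D2:**
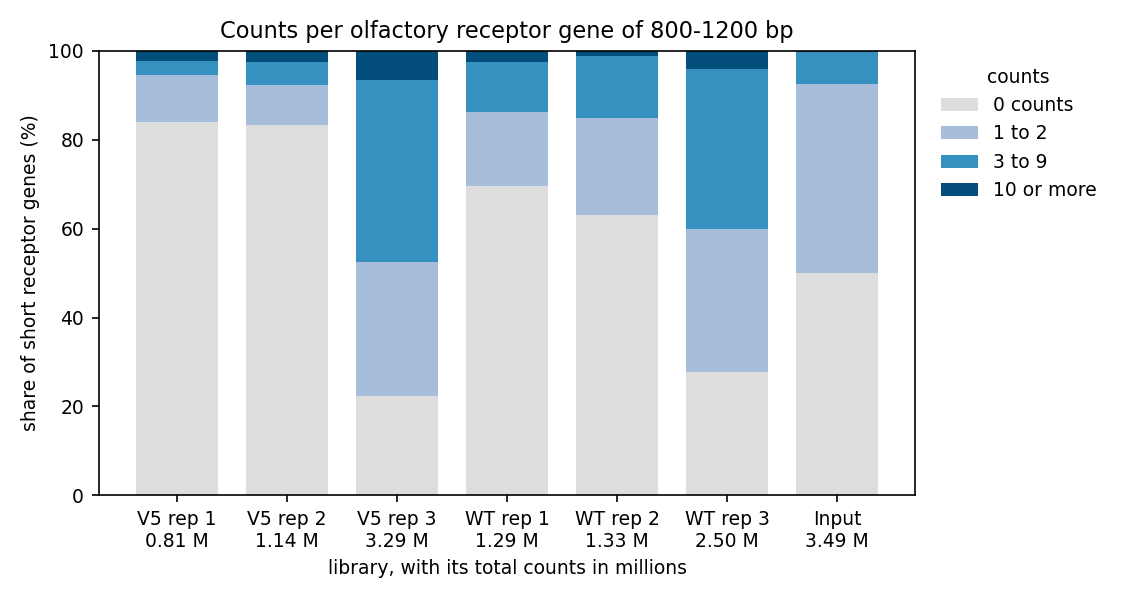
Share of the 1004 olfactory receptor genes of 800 to 1200 bp (vertical axis, percent) with 0, 1 to 2, 3 to 9 and 10 or more counts in each library, with the library total below. In V5 replicates 1 and 2, 84.0% and 83.3% of the genes are at 0, whereas the input has 50.1% at 0 and most others at 1 to 2 counts.

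Gene by gene, the input could be compared with the ChIP libraries only for members with enough reads. Of the 46 members with at least 70 counts, 36 were over 5000 bp, so this group stands for the long receptors and not for the family. The input was below all 6 ChIP libraries for 3 of the 46, where 11.6% of all genes with that many counts were below, and above all 6 for 6 of them, where 15.4% of all genes were above. The median log2 ratio to the input was 0.50 for V5 and 0.37 for wild type over the 46, against 0.03 and 0.00 over all such genes. The V5 median was 0.12 without V5 replicate 3 and 0.26 without V5 replicate 2. With a minimum of 30 counts, 13 of 123 members had the input below all ChIP libraries, as did 2077 of all 19839 such genes, and 7 had it above, where 15% of all such genes did. The 22 short ones among the 123 entered through high counts in 1 or a few ChIP libraries and do not stand for short receptors.

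**Figure D3:**
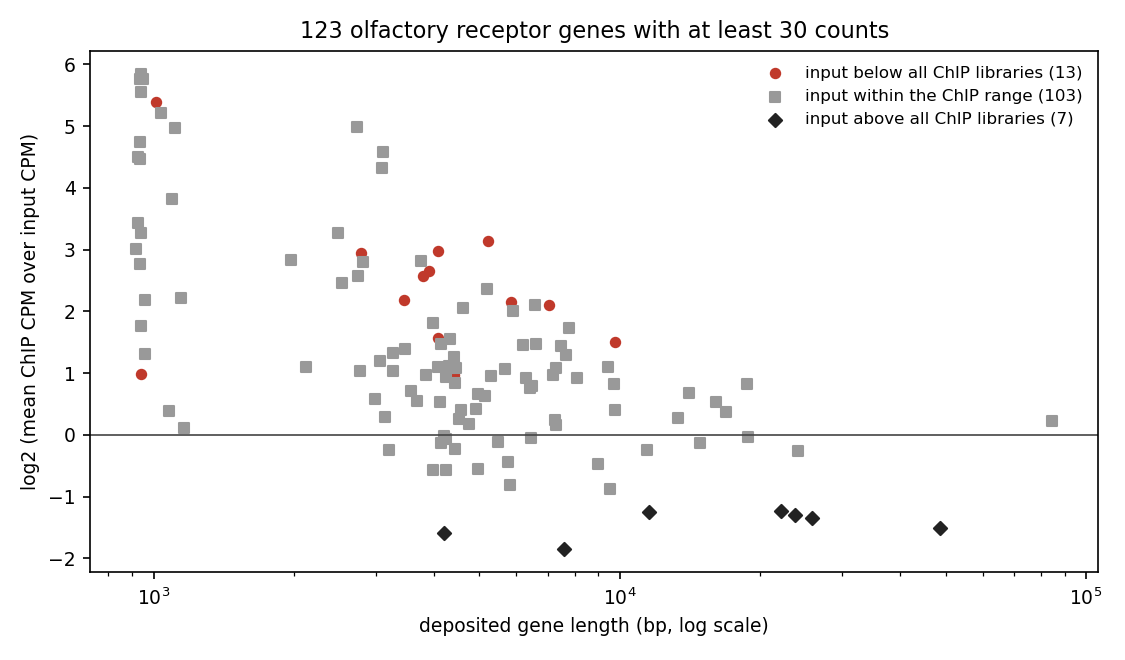
Log2 ratio of the mean ChIP CPM to the input CPM (vertical axis) against deposited gene length in bp (log scale) for the 123 olfactory receptor genes with at least 30 counts, coloured by where the input lies. Of the 7 members with the input above all ChIP libraries, 6 are over 5000 bp, among them Olfr687 and Olfr1300-ps1, and Olfr544 has 4194 bp; the short genes on the left were selected by the minimum itself.

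The receptors with the most reads were long, and the input held a large part of them. Olfr687 (chr7, 105227717 to 105276461, deposited length 48740 bp) had 29.8, 59.7 and 60.2 CPM in V5, 59.0, 37.7 and 56.7 CPM in wild type and 144 CPM in the input. Every ChIP library of Olfr687 was far below the input. It was also the member with the most counts among those with no close relative by window identity. Olfr1300-ps1, a transcribed pseudogene (chr2, 111667437 to 111693319), had 8.68, 36.0 and 26.2 CPM in V5, 24.8, 39.9 and 18.8 CPM in wild type and 65.6 CPM in the input. Olfr872 (chr9, 20237162 to 20260913) had 53.3, 8.78 and 31.6 CPM in V5, 24.8, 23.4 and 26.0 CPM in wild type and 69.1 CPM in the input. Olfr18 (chr9, 20313892 to 20336094), its neighbour, had 8.68 to 21.1 CPM over the ChIP libraries and 40.4 CPM in the input. In these 4 genes the input was higher than every ChIP library, and V5 and wild type overlapped.

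The other members with the most counts had the input inside the ChIP range. Olfr56, of uncertain extent, had 34.7, 74.7 and 62.1 CPM in V5, 64.4, 87.4 and 71.9 CPM in wild type and 56.5 CPM in the input. Olfr943 (chr9, 39166310 to 39185124) had 8.68 to 37.8 CPM over the ChIP libraries and 26.1 CPM in the input. At the far ends of the ratio, Olfr268-ps1 (chr2, 111844262 to 111851838) had 0.776 to 4.96 CPM over the ChIP libraries and 13.2 CPM in the input. Olfr1181, printed above, had 0, 42 and 6 counts in V5, 11, 0 and 20 in wild type, with 1 in the input, so that its ratio rests on a few libraries. Olfr607 (chr7, 103460223 to 103464126) had 1, 1 and 20 counts in V5, 18, 7 and 22 in wild type, with 3 in the input. Olfr1038-ps (chr2, 86120224 to 86123037) had 0, 0 and 24 counts in V5, 29, 5 and 16 in wild type, with 3 in the input.

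By position, members within 1 Mb of each other were joined into 49 clusters. The 22 clusters with at least 10 genes hold 1036 members, and 27 smaller ones hold 90. The input was below all 6 ChIP libraries in 13 of the 22, where 31.1% of all genomic blocks tested were below, and above all 6 in 2, where 19.2% of blocks were above. Counting only members up to 5000 bp, a division made after the values were seen, the input was below in 16 of the 22 and above in 0. The share of other blocks under the same restriction was not computed, and 31.1% covers genes of all lengths, so the 16 have no matched background. The largest cluster, on chromosome 2 (85330967 to 90401674, 227 genes), had 342, 383 and 385 CPM in V5, 335, 240 and 389 CPM in wild type and 136 CPM in the input. The cluster on chromosome 10 (128989914 to 130211128, 58 genes), where no member held more than 4.71% of the reads, had 47.1, 58.0 and 54.8 CPM in V5, 39.6, 66.3 and 68.3 CPM in wild type and 12.3 CPM in the input. The ratio to the input there was 4.32 for V5 and 4.71 for wild type.

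The clusters in which the input was not below the ChIP libraries were of several kinds. Those on chromosomes 2 (28 genes), 4 (13 genes) and 6 (21 genes) had the input inside the ChIP range with 0 members over 5000 bp. So did the one on chromosome 16 (27 genes), where Olfr183 held 13.7% of reads. Long genes led the clusters of Olfr56 on chromosome 11 (83.8% of reads), Olfr1353 on chromosome 10 (42.1%) and 3 more, given here. The cluster on chromosome 7 (102476773 to 105369317, 126 genes), which holds the class I receptors, the family branch shared with fish, had 197, 186 and 239 CPM in V5, 227, 205 and 234 CPM in wild type and 210 CPM in the input. Olfr687 held 34.9% of its reads. Over its members up to 5000 bp the input was 38.4 CPM and the ChIP libraries 69.4 to 141 CPM. Its 114 short members had 0.205 CPM per kb in the input and 0.517 to 1.11 in the ChIP libraries, and the short members of all other clusters 0.255 and 0.811 to 1.14, so the gap was present in both branches. The cluster on chromosome 2 from 111230853 to 112157007 (39 genes, 50.6% of reads in Olfr1300-ps1) had 49.7 to 81.4 CPM in the ChIP libraries and 87.4 CPM in the input. The cluster on chromosome 9 from 18754692 to 20336094 (36 genes, 31.4% of reads in Olfr872) had 84.3 to 136 CPM in the ChIP libraries and 140 CPM in the input. Without members over 5000 bp the input of these clusters was 8.60 and 15.2 CPM, below their ChIP libraries at 14.9 to 49.5 and 18.6 to 101 CPM.

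**Figure D4:**
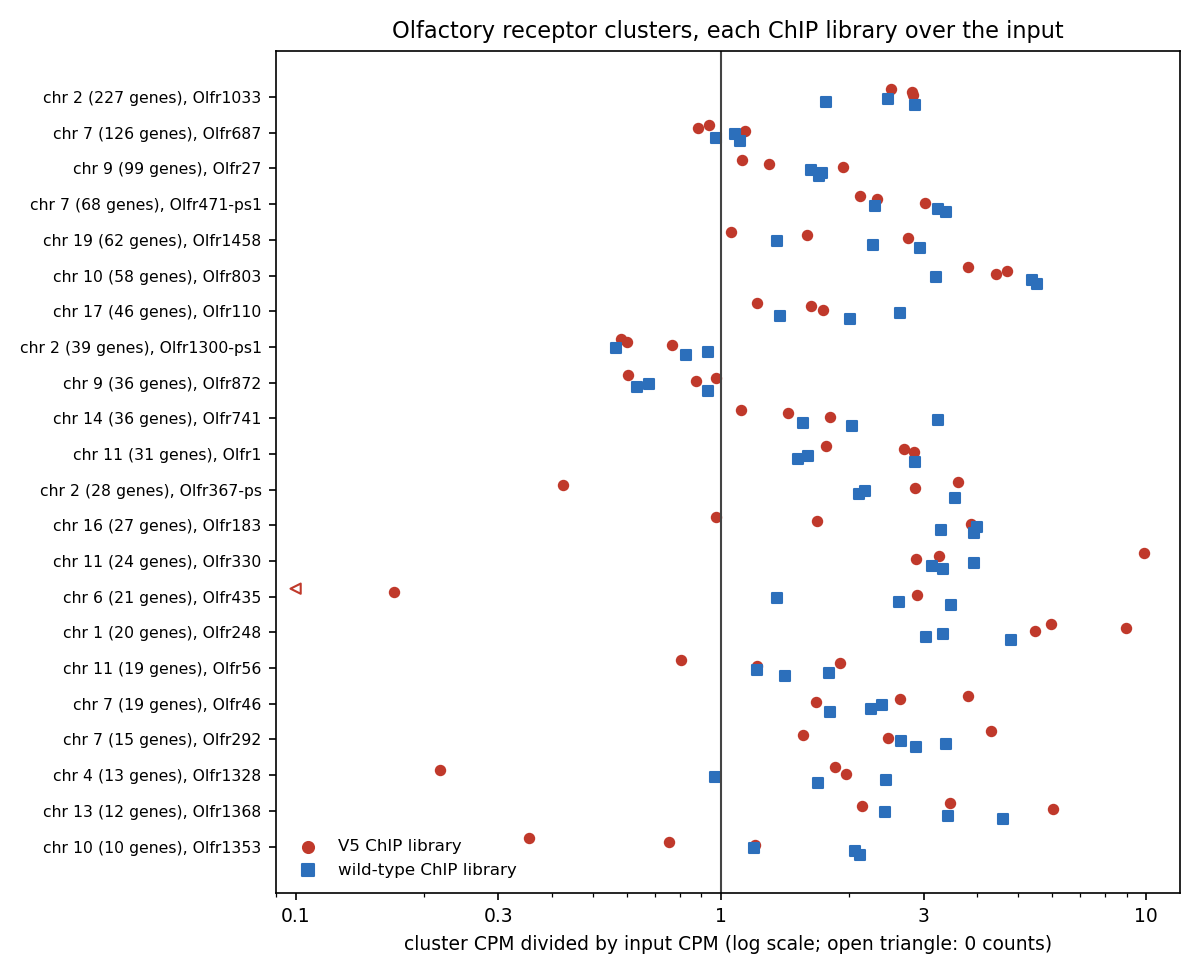
Summed CPM of each ChIP library divided by the input CPM (horizontal axis, log scale) for the 22 clusters of at least 10 olfactory receptor genes, ordered by size and labelled with the chromosome and the member with the most reads. Most points lie right of the line at 1; the clusters of Olfr1300-ps1 and Olfr872 lie wholly left of it, and points left of 1 in small clusters are mostly V5 libraries with few counts.

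V5 and wild-type ChIP were compared next, since only the V5 libraries hold tagged MOZ. The summed reads of the family did not separate the genotypes: V5 was at 0.961 times wild type (log2 ratio of -0.06), and the libraries, at 1566, 1689 and 1911 CPM in V5 and 1703, 1687 and 1987 CPM in wild type, overlapped. With each cluster as 1 feature in a fit over 2306 genomic blocks, 27 clusters were tested and 0 passed an adjusted p of 0.05 in edgeR's quasi-likelihood test with Benjamini-Hochberg adjustment, as 0% of all blocks did. DESeq2 and limma-voom called 0 clusters as well. At an unadjusted p under 0.05 there was 1 cluster, where 5.42% of all blocks were under. That cluster has 3 genes on chromosome 8 (72057660 to 72110509) and a log2 fold change of 1.58 (SE 0.75). The smallest adjusted p of any cluster in edgeR was 0.864. The sign was positive for 12 of the 27, and their median log2 fold change was -0.09, against 0.01 over all blocks.

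The largest clusters had the smallest errors. The log2 fold change was 0.22 (SE 0.16) for the 227 genes on chromosome 2, -0.07 (SE 0.18) for the 126 genes of the class I cluster and -0.18 (SE 0.22) for the 99 genes on chromosome 9 (37711348 to 40188094). Small clusters varied more. The 20 genes on chromosome 1 (172956768 to 174449602) had 22.3, 33.4 and 20.4 CPM in V5, 12.4, 11.3 and 18.0 CPM in wild type and 3.73 CPM in the input. This was the only cluster of the 22 in which V5 lay wholly above wild type, with 0.85 on the log2 scale (SE 0.57, adjusted p of 0.864 in edgeR), where 5.42% of blocks were wholly above. None of the 22 lay wholly below, where 6.63% of blocks did. The 10 genes on chromosome 10 (78498183 to 79035802) had the lowest log2 fold change of the larger clusters, -1.12 (SE 0.57), from 6.20, 13.2 and 21.0 CPM in V5 and 21.0, 36.2 and 37.1 CPM in wild type. V5 replicate 3 and the lowest wild-type library were at about the same level, so the groups touched.

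**Figure D5:**
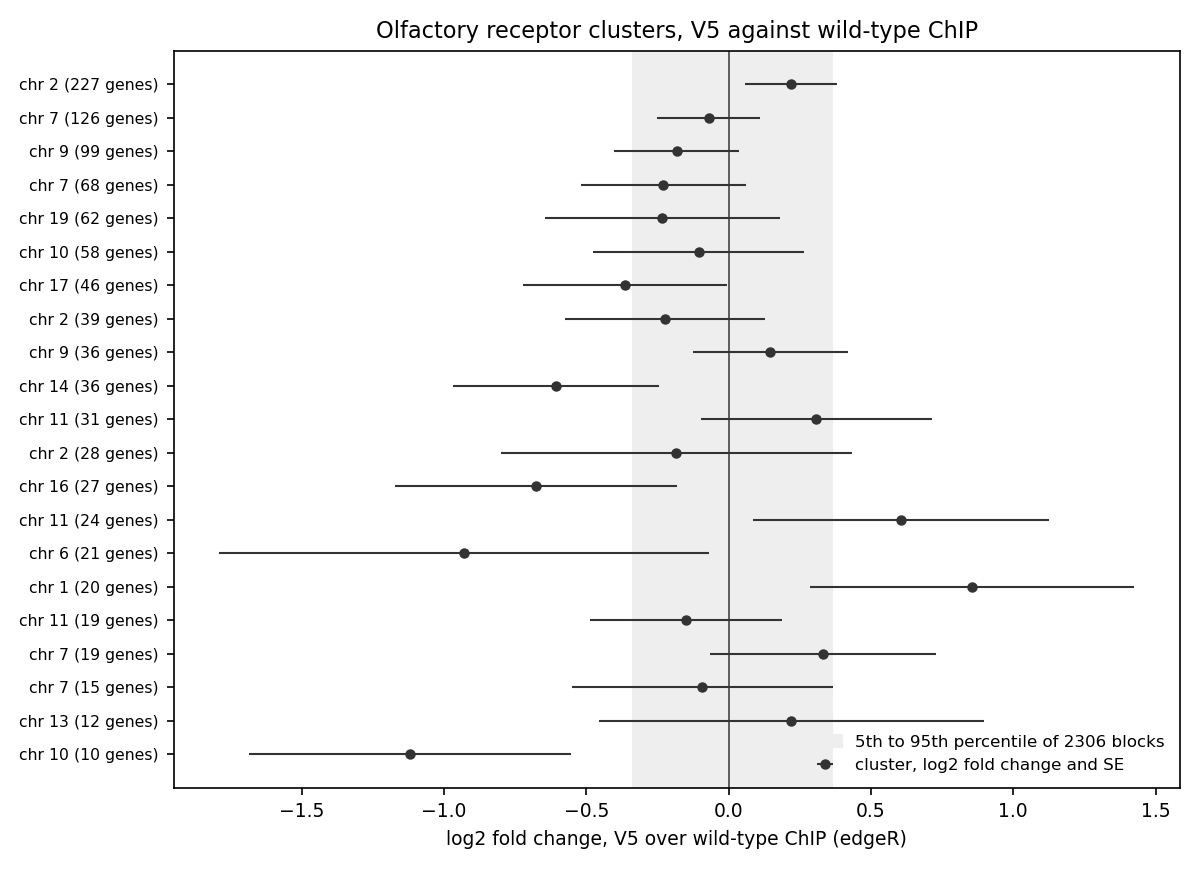
Log2 fold change of V5 over wild-type ChIP with its standard error (edgeR) for the 21 tested clusters of at least 10 olfactory receptor genes, ordered by size. The grey band spans the 5th to 95th percentile of all 2306 blocks, -0.34 to 0.36; the largest clusters lie inside it and the small ones scatter to both sides with wide errors.

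Single receptor genes gave 32 members with enough reads to be tested among 14575 genes, all others having fallen below the filter on low counts. None of the 32 passed an adjusted p of 0.05 in edgeR, and 0% of all genes did. DESeq2 and limma-voom called 0 of the 32 too, and 0.00686% and 0.0274% of all genes. At an unadjusted p under 0.05 there were 2, where 4.19% of all genes were under. V5 lay wholly above wild type in 2 members, where 4.83% of all genes did, and wholly below in 4, where 5.27% did. The sign was positive in 18 of 32, and the median log2 fold change was 0.05, against 0.03 over all genes tested. The smallest adjusted p among the members was 0.978. In simulated data the gene fit called 6.06% of 2-fold and 69.0% of 4-fold changes, so a 2-fold change in a single gene would mostly be missed.

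The members with the smallest p are given with their values. Olfr741 (chr14, 50473057 to 50486395) had 4, 2 and 21 counts in V5, 54, 19 and 38 in wild type, with 41 in the input. In CPM, V5 was 4.96, 1.76 and 6.39 and wild type 41.9, 14.3 and 15.2, with the input at 11.8 between them, and the log2 fold change was -2.34 (SE 0.75). Olfr1033 (chr2, 86020640 to 86044808) had 33.5, 58.0 and 42.0 CPM in V5, 21.7, 20.3 and 25.6 CPM in wild type and 40.1 CPM in the input. All 3 V5 libraries of Olfr1033 were higher than wild type, with a log2 fold change of 1.00 (SE 0.44), and the input stood among the V5 values. Both genes failed the adjustment, at an edgeR adjusted p of 0.978.

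Olfr78, a class I receptor for short-chain fatty acids that is also expressed outside the nose, for example in the carotid body, had 22.3, 22.8 and 22.5 CPM in V5. Its wild-type libraries had 10.1, 8.29 and 14.8 CPM and its input 9.46 CPM. The V5 libraries of Olfr78 (chr7, 102740721 to 102759471) did not overlap wild type, the log2 fold change was 1.04 (SE 0.61), and the edgeR adjusted p was 0.978. Olfr78 overlaps another gene in the annotation, so part of its reads may not have been counted. The same holds for Olfr872, Olfr330, Olfr16 and Olfr1507 among the genes named here. Among the other members with the lowest p, Olfr286 (log2 fold change of -1.88, SE 0.93), Olfr1082 (-1.65, SE 0.84) and Olfr292 (-0.95, SE 0.68) had V5 wholly below wild type, and Olfr27 (-1.14, SE 0.61) had overlapping groups. On the other side, Olfr330 (1.74, SE 1.22), Olfr5 (1.10, SE 0.95) and Olfr1157 (1.04, SE 0.78) had overlapping groups as well. Olfr330 had 45 counts in V5 replicate 1 and 0 to 20 in each of the other ChIP libraries, and without that library its log2 fold change was -1.60. Olfr1157 had 34 counts in V5 replicate 1 and -0.35 without it.

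Receptors that are well known from work on the nose had few counts here. Olfr16 (MOR23), a receptor also found in sperm, had 0, 0 and 7 counts in V5, 0, 0 and 1 in wild type, with 0 in the input. Olfr17 (P2), used in many studies of axon targeting, had 0, 0 and 2 in V5, 3, 6 and 1 in wild type, with 0 in the input. Olfr73 (mOR-EG), a eugenol receptor, had 0, 0 and 2 in V5, 1, 0 and 1 in wild type, with 0 in the input. In these 3 receptors no library but V5 replicate 3 and wild-type replicate 2 exceeded 3 counts. Olfr15 had 0, 0 and 4 in V5, 1, 0 and 4 in wild type, with 0 in the input. Olfr151 (M71), annotated as a transcribed pseudogene in this table, had 0, 0 and 2 in V5, 3, 0 and 13 in wild type, with 0 in the input. Olfr160 (M72) had 1, 0 and 0 in V5, 0, 0 and 3 in wild type, with 2 in the input. None of these 3 had a count pattern that set the genotypes apart. Olfr545 (S50), a class I receptor, had 0, 0 and 13 in V5, 0, 3 and 2 in wild type, with 1 in the input. Olfr2 (I7), an octanal receptor, had 0, 0 and 11 in V5, 1, 3 and 2 in wild type, with 4 in the input. Olfr1507 (MOR28), of 5761 bp, had 1, 1 and 18 in V5, 3, 3 and 8 in wild type, with 13 in the input. In 8 of these 9 V5 replicate 3 held all or most of the V5 counts, being the deepest V5 library, and no difference was detectable at this depth in any of them.

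Genes of the olfactory neuron machinery were read in the same way. Of 28 such genes, 22 were tested, and edgeR called 0 of them, as it called 0% of all genes. At an unadjusted edgeR p under 0.05 there were 0, where 4.19% of all genes were under. The sign was positive for 7 of the 22, where 52.5% of all genes tested were positive. Their median was -0.05 against 0.03 over all genes. Adcy3, the adenylyl cyclase of odorant signalling, had a log2 fold change of 0.34 (SE 0.32) and Gnal, its G protein, -0.27 (SE 0.27). Ebf1, a regulator of receptor promoters, was at -0.11 (SE 0.17), and Lhx2 at -0.52 (SE 0.67). The largest positive value was that of Lbr, the lamin B receptor that keeps heterochromatin at the nuclear edge, at 0.90 (SE 0.47). Omp, the marker of mature olfactory neurons, had 0 counts in all libraries over 2089 bp. Cnga4, a subunit of the olfactory channel, had 53 counts in V5 replicate 2 and 0 to 6 in every other library.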

How the data were processed

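The authors deposited raw read counts per gene for 7 ChIP-seq libraries, with a gene identifier and a length, per the file headers; counts in the 7 per-library files equal those in the table. The submitters' processing notes name bcl2fastq, featureCounts, MACS and mm10. Aligner, duplicate handling and counting settings were not given in the sources used here. Counts cover gene models, so upstream bases are outside them. Members were matched by gene identifier to RefSeq GRCm38.p6, which holds 1428 symbols of this kind, 1126 of them counted.

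CPM are counts over the library total, times 1e+06. The V5 against wild-type test was the two-sided quasi-likelihood test of edgeR 4.0.16 (R 4.3.3), after filterByExpr at 10 counts and TMM scaling, with Benjamini-Hochberg adjustment over all features and a threshold of 0.05. It ran per gene and per genomic block: receptor genes with gaps up to 1 Mb were summed into clusters, and other genes into windows of 1 Mb. The coefficient of variation was 0.387 over genes and 0.150 over blocks. The fitting scripts were tested on simulated data with known changes, placed only in features with many counts. Per gene, 6.06% of 2-fold, 69.0% of 4-fold and 100% of 8-fold changes were called. Per block, 98.5% of 2-fold changes were called, a value that does not stand for small receptor clusters with wide errors. Ratios to the input use a prior count of 0.5 for single genes and carry no test, as there is 1 input.

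Named genes are the 5 of smallest p either way, the 8 with the most counts, the 3 highest and 3 lowest ratios to the input among those with at least 70 counts, 10 well-known receptors, the pairs most alike and all clusters of at least 10 genes. Likeness was taken from 300-base start windows in place of proteins, a choice made after the files were seen, as were the length classes and the genes for which sequence is printed. Members, lists and rules were chosen with earlier results of these data known.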

Additional observations from a re-analysis of the deposited data

How the results depend on the processing

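No olfactory receptor gene and no cluster passed the adjusted threshold under any alternative run: DESeq2 size factors, the DESeq2 test, limma-voom, no filter on low counts, the replicate number as a block, clusters split at gaps over 0.5 Mb, and each library left out in turn. Without V5 replicate 3, 6 of 28 clusters had an unadjusted p under 0.05 in edgeR, against 1 of 27 in the full fit. Over all blocks the share was 10.6%, against 5.42%. With no filter on low counts, 104 of 1104 receptor genes were under 0.05 unadjusted in edgeR, a larger share than the 1344 of 24447 over all genes. The sign was positive for 481 of the 1104. The median log2 fold change of the 1104 was -0.28, against -0.0036 over all genes, and most of the 1104 hold few reads. Same-numbered V5 and wild-type libraries had deviations that correlated at 0.0012 to 0.055, and libraries of different number at -0.041 to 0.023. The highest value was that of V5 replicate 3 with wild-type replicate 3. Correlations this weak in sparse counts do not show a pairing by number and cannot exclude one. With the replicate block, 0 receptor genes and 0 receptor clusters were called (over all features, 1 of 14575 genes and 2 of 2306 blocks), and the signs of Olfr1181 (-0.43), Olfr330 (-0.070) and Olfr687 (-0.019) turned. With limma-voom Olfr1181 was at -0.38 and Olfr330 at -0.43, and with no filter Olfr687 was at -0.021. The log2 fold changes of 8 named genes and 9 clusters changed sign when single libraries were left out, none of them past the threshold in any fit. The ranges were -0.35 to 1.47 for Olfr1157, -2.12 to 1.75 for Olfr1181, -0.58 to 0.14 for Olfr1300-ps1, -0.39 to 0.064 for Olfr18, -1.60 to 2.34 for Olfr330, -0.19 to 0.21 for Olfr687, -0.26 to 0.80 for Olfr872 and -0.13 to 0.52 for Olfr943. For clusters, they were -0.55 to 0.28 (28 genes, chromosome 2), -0.52 to 0.17, -0.19 to 0.00090 and -0.011 to 0.61 (15, 126 and 19 genes, chromosome 7), -0.31 to 0.022 (58 genes, chromosome 10), -0.50 to 0.065 and -0.18 to 0.94 (19 and 24 genes, chromosome 11), -0.34 to 0.50 (12 genes, chromosome 13) and -0.70 to 0.028 (62 genes, chromosome 19). The other named genes and clusters kept their sign in the fits run.

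Ratios to the input stayed positive in the alternatives run. The log2 ratio of the family total was 0.66 for V5 and 0.72 for wild type. It was 1.28 and 1.34 without the 10 members with the most counts, and 1.55 and 1.63 with members up to 5000 bp only, alternatives chosen after seeing the data. The median ratio per gene was 0.50 for V5 and 0.37 for wild type. Without single libraries it ran from 0.12 (without V5 replicate 3) to 0.38 for V5 and from 0.28 to 0.41 for wild type. It was 0.99 and 0.98 with a minimum of 30 counts, and 1.28 and 1.57 with no minimum above 0. These 4 values support nothing on their own: short members pass a minimum of 30 through high ChIP counts, and at few counts the prior sets the ratio, as for Olfr596, with 0 counts in all libraries and ratios of 1.00 and 1.03. For short receptors the log2 ratio of densities was 1.86 for V5 and 1.91 for wild type; without the 5% and the 10% with the most counts, V5 was at 1.46 and 1.40, and wild type moved by less than its spread. Depth limits what single short receptors can show, and the single input, of another library type, limits every ratio to it.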
